A study of Mus musculus with 6 samples.

Results

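Macrophages take up dying cells, a process called efferocytosis, and 10 genes of this process were followed here in macrophages with and without the transcription factor c-Maf. The genes were the bridging ligands Gas6, Pros1 and Mfge8, the TAM receptors Tyro3, Axl and Mertk, the receptors Timd4 and Lrp1, and the engulfment genes Elmo1 and Dock1. They were picked by name, with earlier results of these data known. Every non-control probe that the array files assign to them was used, which gave 13 probes. Of these, 11 probes of 9 genes were well above background on at least 2 arrays and entered the tests, out of 28273 probes and 20243 genes or named features in all. The probe of Timd4 and 1 of 2 Tyro3 probes were not well above background on any array.

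RNA came from mouse macrophages that the labels call polarized M2-like BMM, where BMM is an abbreviation they do not spell out. These cells were cultured from chimeric mice whose donor fetal liver was WT or c-Maf KO, with 3 samples of each genotype. Both groups were kept in medium with 10% FBS and M-CSF at 10 ng/ml, which was added daily from day 4, and no other cytokine is named. The labels do not give the deleted part of Maf, the age or strain of the mice, how many mice stand behind a sample, or how many cells of the recipient remained. The array files of WT replicates 1 and 3 carry the same tag in their names, so it is uncertain whether these are independent samples, and they are counted as separate in every n = 3 for WT. The p-values reflect only how these samples vary, and that variation may be technical. Levels are 1-colour Agilent signals of 5 arrays (WT replicates 1 to 3, c-Maf KO replicates 2 and 3); the scanner output of the remaining c-Maf KO sample was not analysed here. That sample, replicate 1, enters through the deposited value table, which holds each sample's ratio to the probe's median over the 6 samples. A log2 ratio of 0 there is the middle of the 6 samples, not an absence of expression.

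A dying cell exposes phosphatidylserine on its surface. Gas6 and protein S, encoded by Pros1, bind this lipid through a domain that needs vitamin K-dependent carboxylation. Between them, and not each for every receptor, these ligands link the dying cell to the TAM receptor tyrosine kinases Tyro3, Axl and Mertk. Mfge8 makes a similar bridge to integrins, and Timd4 binds the lipid directly. Lrp1 recognises calreticulin on dying cells, and the Elmo1 and Dock1 proteins activate Rac, which drives the actin rearrangement of engulfment. In macrophages Mertk is best known for quiet clearance of dying cells, and TAM signalling also restrains inflammatory cytokine production.

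The results turn on the probes of Gas6, Tyro3 and Axl. The first 30 bases of each 60-base probe are shown from its 5′ end as the array files give them, since a result belongs to the stretch of transcript that the probe matches, and the pair of Tyro3 probes gave different outcomes.
Gas6 (chr8:13465444-13465503, minus strand, mm9): tgggctagaggggctggcagtttgcagcag
Axl (chr7:26542541-26542600, minus strand, mm9): ttgagtgtctgagattctaaaggtccacag
Tyro3, detected probe (chr2:119643759-119643818, plus strand, mm9): gcaggctcttgctgttaggaacatttctaa
Tyro3, probe not above background (chr2:119642510-119642569, plus strand, mm9): atcaacattgagagagctgagcagcctact
Which exon or untranslated part each probe lies in was not analysed here.

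The c-Maf KO label was borne out by Maf itself. The main Maf probe (chr8:118227736-118227795, mm9) measured log2 ratios of 1.92, 1.98 and 2.03 in WT and -2.22, -2.36 and -1.92 in c-Maf KO. It fell by 4.12 on the log2 scale on the 5 arrays (SE 0.15, adjusted p = 0.0093) and the value table gave -4.14 (SE 0.12, adjusted p = 0.00083). Adjusted p-values are Benjamini-Hochberg values over all 28273 probes from limma, and a probe is called at an adjusted p under 0.05. The main Maf probe stayed well above background in c-Maf KO replicates 2 and 3, at signals of 92.1 and 144. A second Maf probe (chr8:118207273-118207332) was not well above background on those arrays. It measured -4.74 on the 5 arrays (adjusted p = 0.0012, limma). In the value table it measured -4.34 and was not called (adjusted p = 0.052, limma).

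None of the 11 member probes was called in either source. Few probes were called anywhere: on the 5 arrays 0.0106% of all probes were called lower and 0.0141% higher in c-Maf KO, and for the value table these shares were 0.0106% lower and 0.0106% higher. At an unadjusted p under 0.05 stood 2 member probes in each source, Gas6 and Tyro3, against 10.5% of all probes for the 5 arrays and 12.1% for the value table. In the value table, 1 member probe had all 3 c-Maf KO samples below all 3 WT samples (Gas6) and 2 had them all above (Tyro3 and Axl). Over all probes these shares were 9.26% lower and 10.2% higher, so the members' counts are near this background. The median difference of the member probes, c-Maf KO minus WT, was -0.036 on the 5 arrays and -0.029 over the 6 samples of the value table, against -0.014 and -0.0038 over all probes.

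**Figure D1:**
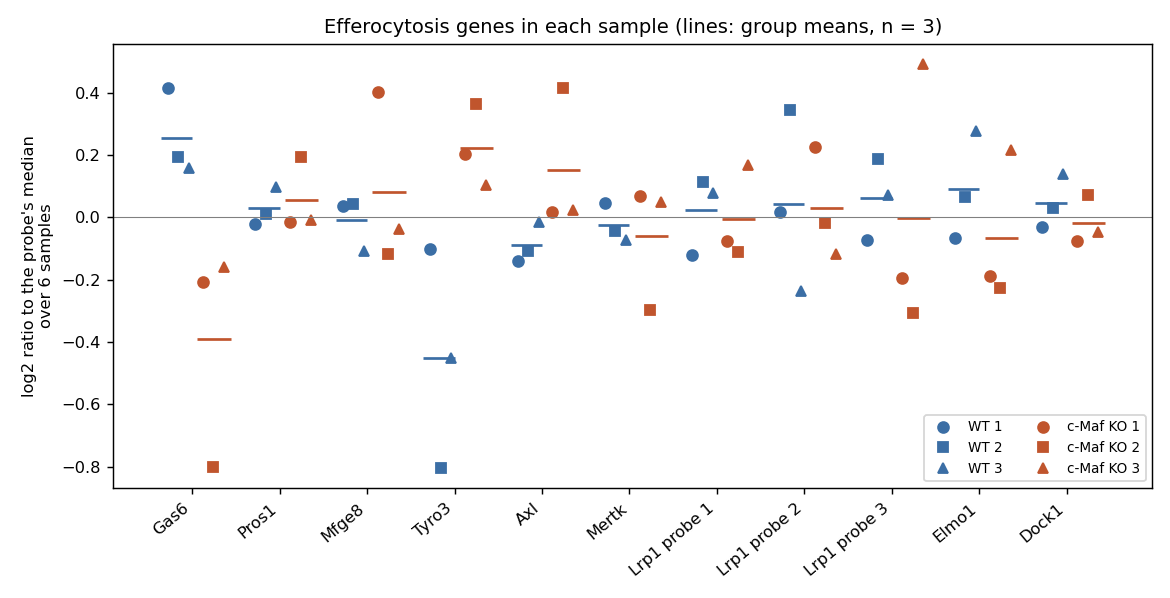
Log2 ratio to the probe's median over the 6 samples (vertical axis) for each of the 11 detected probes (horizontal axis) in the 3 WT (blue) and 3 c-Maf KO (orange) samples of the value table, with lines at the group means. Gas6 lies lower in the c-Maf KO samples, Tyro3 and Axl lie higher, and the groups of the other 8 probes overlap.

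Among the ligands, Gas6 was the one whose groups separated. Its processed signal read 7726, 6514 and 6819 on the WT arrays against 3418 and 6142 for c-Maf KO replicates 2 and 3. Both c-Maf KO arrays thus lay below the WT arrays, c-Maf KO replicate 2 by far more than replicate 3. Relative to each array's 75th percentile, the log2 level was 4.04 ± 0.15 for WT (SD, n = 3) against 3.30 ± 0.47 for c-Maf KO (SD, n = 2). This is a difference of -0.74 (SE 0.22), or 1.67-fold more in WT, which did not pass (unadjusted p = 0.021, adjusted p = 0.409, limma).

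In the value table, Gas6 had log2 ratios of 0.41, 0.20 and 0.16 in WT and -0.21, -0.80 and -0.16 in c-Maf KO. All 3 WT samples lay above all 3 c-Maf KO samples. The difference was -0.65 (SE 0.19, 95% interval -1.11 to -0.18), and it did not pass (unadjusted p = 0.014, adjusted p = 0.294, limma). A two-sided exact permutation test gave p = 0.10, the smallest that 3 against 3 samples allow. Any probe whose groups do not overlap gets this value, so it adds nothing to the separation. The size rested much on c-Maf KO replicate 2: without it the difference was -0.41 on the 5 arrays, against -0.44 over the 5 samples left in the value table, and without it or any other sample it stayed negative. Summed over the 12 detected macrophage markers, the scaled signal was 1624 to 1742 in WT, and 1602 and 1558 in c-Maf KO replicates 2 and 3. The mean log2 ratio of those markers was 0.020 to 0.068 in WT and 0.019, -0.19 and -0.10 for the 3 c-Maf KO samples. Its lowest value thus fell in the sample with the lowest Gas6, and the part of this in the Gas6 difference was not tested.

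Pros1, the other TAM ligand, had groups that overlapped. Its signal was 1955, 1960 and 2240 in WT, and 2333 and 2329 in c-Maf KO replicates 2 and 3. After scaling, the c-Maf KO arrays no longer stood apart, with a difference of 0.062 (SE 0.085). The value table gave 0.028 with a 95% interval of -0.17 to 0.23, so a change as large as that measured for Gas6 lies outside this unadjusted interval in either direction. The difference between the Gas6 and the Pros1 change was itself not tested.

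Mfge8, the integrin bridge, gave signals of 40543, 39927 and 38671 in WT, and 37403 and 45490 in c-Maf KO replicates 2 and 3, and no probe of the arrays was saturated. Its log2 ratios were 0.037, 0.042 and -0.11 in WT and 0.40, -0.12 and -0.037 in c-Maf KO. The first c-Maf KO sample, replicate 1, lay above all others. Replicate 2 lay just below the WT samples and replicate 3 among them. The sign of the difference depended on c-Maf KO replicate 1. It was -0.070 (SE 0.086) on the 5 arrays, which lack that sample, and 0.092 (SE 0.15) in the value table.

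Among the receptors, Tyro3 had the largest difference and it was positive. The signal of the detected probe was 103, 62.3 and 85.5 in WT, and 146 and 141 in c-Maf KO replicates 2 and 3. The log2 level was -2.38 ± 0.35 for WT (SD, n = 3) against -1.69 ± 0.17 for c-Maf KO (SD, n = 2), so c-Maf KO was 1.61-fold higher (difference 0.68, SE 0.22, unadjusted p = 0.030, adjusted p = 0.436, limma). The log2 ratios were -0.10, -0.80 and -0.45 in WT and 0.20, 0.36 and 0.10 in c-Maf KO. The groups did not overlap, and the WT samples were more spread than the c-Maf KO samples. The difference in the value table was 0.68 (SE 0.18, 95% interval 0.23 to 1.13, unadjusted p = 0.010, adjusted p = 0.279, limma). A two-sided exact permutation test gave p = 0.10, the smallest possible here, which follows from groups that do not overlap. With a normexp background correction, the difference on the 5 arrays was 0.35, at an adjusted p of 0.286 (limma). The second Tyro3 probe was listed at signals of 4.54 to 21.2, not well above background, and gives no test of the first.

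Markers of fibroblasts and other stromal cells were, like Tyro3, higher in c-Maf KO. Of 18 such markers 17 were detected (Lum was not), none was called, and all 17 had a positive difference, with a median of 0.94 in the value table against 0.0017 over all genes. For 14 of the 17 the c-Maf KO samples all lay above WT, as they did for 11.1% of all genes. Their mean log2 ratio was -0.11, -0.98 and -0.64 in WT and 0.24, 0.22 and 0.55 in c-Maf KO. Their summed scaled signal was 109 to 189 in WT, and 247 and 273 in c-Maf KO replicates 2 and 3. WT replicate 1 had the highest and WT replicate 2 the lowest WT value for Tyro3 and for the stromal markers alike. Within c-Maf KO the orders differed: replicate 3 had the lowest Tyro3 value and the highest stromal mean. Stromal markers were not the only ones to measure higher in the value table. Of 3 detected monocyte markers 2 measured higher, Ly6c1 (1.39) and Ccr2 (0.73), and 1 lower. Of 8 neutrophil markers 2 measured higher, with Ly6g at 1.55, and 6 lower. The groups of Ly6c1, Ccr2 and Ly6g did not overlap, and none was called. The part of the stromal or of these other markers in the Tyro3 difference was not tested. In such bulk RNA more cells of a type and more RNA per cell cannot be told apart.

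**Figure D2:**
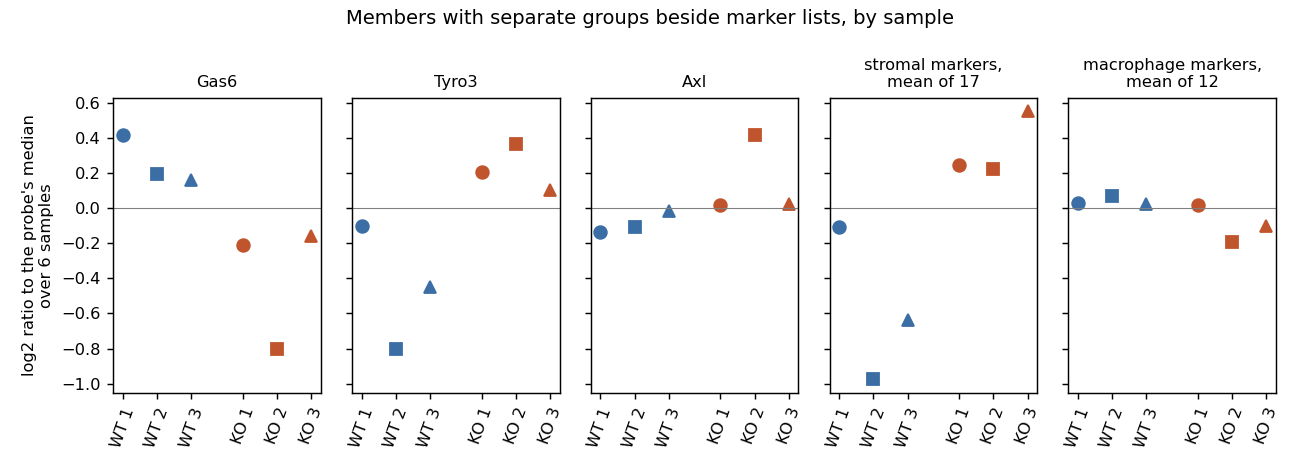
Log2 ratio to the probe's median over the 6 samples (vertical axis) in each WT (blue) and c-Maf KO (orange) sample for Gas6, Tyro3 and Axl, and the mean log2 ratio of 17 stromal and 12 macrophage markers. The stromal mean runs from -0.98 to 0.55 and the macrophage mean from -0.19 to 0.068.

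Axl was a little higher in c-Maf KO. Its signal was 6036, 6050 and 6933 in WT, and 9103 and 7987 in c-Maf KO replicates 2 and 3. The log2 ratios were -0.14, -0.11 and -0.016 in WT and 0.016, 0.41 and 0.024 in c-Maf KO. The groups did not overlap, but the gap between them was narrow and only c-Maf KO replicate 2 lay far from WT. The difference was 0.31 (SE 0.13, adjusted p = 0.501, limma) on the 5 arrays and 0.24 (SE 0.12, 95% interval -0.062 to 0.54, adjusted p = 0.496, limma) in the value table. Without c-Maf KO replicate 2 it was 0.12 and 0.11.

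Mertk showed no separation of the groups. Its signal was 1647, 1519 and 1601 in WT, and 1334 and 1953 in c-Maf KO replicates 2 and 3, so the c-Maf KO arrays lay on either side of WT. The log2 ratios were 0.045, -0.045 and -0.072 in WT and 0.069, -0.30 and 0.050 in c-Maf KO. The difference was -0.10 (SE 0.13) on the 5 arrays, and -0.036 (SE 0.11, 95% interval -0.32 to 0.24) in the value table. Without c-Maf KO replicate 2 it turned to 0.082 and 0.084. That sample had the lowest Gas6 and Mertk values and the highest Axl and Tyro3 values of the 6 samples.

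Timd4, the direct phosphatidylserine receptor that marks many tissue-resident macrophages, was listed at signals of 5.52 to 6.22 on the 5 arrays, none well above background. No fold change is given for it. The labels give liver as the tissue, fetal liver as the source and BMM as the cell type. Of 13 general macrophage markers 12 were detected (Cd163 was not), and of 6 markers of liver macrophages 5 were detected (Clec4f was not). All 8 listed neutrophil markers and 3 of 7 hepatocyte markers were detected too, so detection alone does not tell the cell type. Of the 5 liver macrophage markers, 3 measured lower and 2 higher in c-Maf KO in the value table. Groups did not overlap for 2 of the lower ones, Folr2 (-1.34, SE 0.12) and Marco (-0.19, SE 0.12), and for 1 higher one, Vsig4 (1.62, SE 0.61). Over all genes 8.87% were lower and 11.1% higher without overlap. The adjusted p-values were 0.079, 0.552 and 0.385 in that order (limma), so none was called. These genes were named after their values were seen.

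Lrp1 was read by 3 probes, which do not share one level and are not replicates of each other. The brightest (chr10:126975573-126975632, mm9) gave signals of 10403 to 12591 in WT, and 10777 and 15035 in c-Maf KO replicates 2 and 3. Its difference was 0.0047 (SE 0.13) on the 5 arrays and -0.029 (SE 0.11) in the value table. The second probe (chr10:127026228-127026287) measured -0.11 (SE 0.19) and -0.012 (SE 0.17). The third (chr10:127037088-127037147) was well above background on 3 arrays only and measured 0.029 (SE 0.26) and -0.066 (SE 0.22). The groups overlapped for all 3 probes, and the interval was narrowest for the brightest, at -0.29 to 0.23 in the value table.

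The engulfment genes gave small negative differences. Elmo1, whose 60-base probe is split over chr13:20681555-20692067 (mm9), had signals of 128, 138 and 171 in WT, and 118 and 184 in c-Maf KO replicates 2 and 3. Its difference was -0.098 (SE 0.18) on the 5 arrays and -0.16 (SE 0.15) in the value table. Dock1 had signals of 1934, 1983 and 2296 in WT, and 2134 and 2261 in c-Maf KO. Its difference was -0.036 (SE 0.079) and -0.064 (SE 0.076), with a 95% interval of -0.25 to 0.12 in the value table. The groups of both genes overlapped in both sources.

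**Figure D3:**
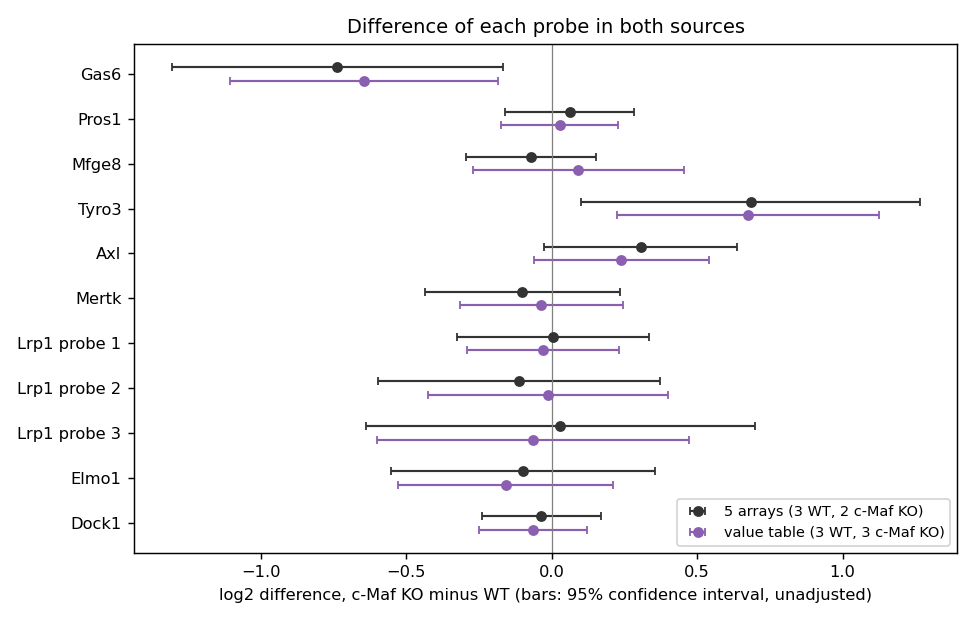
Log2 difference, c-Maf KO minus WT (horizontal axis), of each of the 11 detected probes on the 5 arrays (dark) and in the value table (purple), with unadjusted 95% confidence intervals. The intervals of Gas6 and Tyro3 lie on one side of 0 in both sources, and those of the other 9 probes hold 0.

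Gas6 had a pattern over the 6 samples that a few genes outside the set followed closely. Of 13271 genes with a symbol compared, 46 had a Pearson r over 0.95 with Gas6. The 5 with the highest r were Tfrc, the transferrin receptor (r = 0.993), Fxyd2, a regulator of the sodium pump (0.991), Ocrl, an inositol polyphosphate phosphatase (0.990), Cpq, a carboxypeptidase (0.990), and Btbd11 (0.984). Spearman's rank correlation was 1 for Tfrc, Fxyd2 and Cpq and 0.943 for Ocrl and Btbd11. Without WT replicate 1 and c-Maf KO replicate 2, the samples farthest from the Gas6 median, r was 0.96 to 0.997 over the remaining 4. These genes were picked for their likeness, so r is a description with no p, and much of it is the shared separation of WT from c-Maf KO. Tfrc measured 0.26, 0.12 and 0.12 in WT and -0.13, -0.41 and -0.12 in c-Maf KO.

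c-Maf belongs to a family that binds Maf recognition elements, whose half-site is TGCTGA. The strings searched as their cores were TGANTCA, where N stands for any base, and TGACGTCA. RefSeq promoters of all 10 genes were found (11 windows, GRCm38.p6), and the 250 bases before each start were searched on both strands. The half-site stood in 1 window, that of Timd4, at 2 places, and neither core stood in any. The half-site occurs in 16.1% of 32851 promoters of the same length, TGANTCA in 6.75% and TGACGTCA in 1.55%. The 2 Timd4 matches are shown with the half-site, which reads on the opposite strand, in capitals, since they were the only matches found near a start.
Timd4, 150 bases before the start (chr11:46810634-46810669, plus strand, GRCm38.p6): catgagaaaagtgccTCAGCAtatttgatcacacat
Timd4, 44 bases before the start (chr11:46810740-46810775, plus strand, GRCm38.p6): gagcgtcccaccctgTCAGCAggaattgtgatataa
A match is a string of letters and no measured binding, and for the other genes it can only be said that these letters are not in this window.

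Other genes of the same process were read from 9 lists holding 151 genes, of which 141 were detected. No gene of the 141 was called in either source. At an unadjusted p under 0.05 stood 29 of them for the 5 arrays (20.6%, against 10.4% of all genes) and 31 for the value table (22.0%, against 12% of all genes). Of these genes, 23 had value-table c-Maf KO samples all below WT (16.3%) and 22 all above (15.6%). Over all genes the shares were 8.87% lower and 11.1% higher. The lists were chosen with earlier results of these data known, so larger shares in them are a description and no test. The median of the 141 was -0.0070, against 0.0017 over all genes. For each list the genes named here are those with the largest differences among the ones whose groups did not overlap, and the values are value-table differences.

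**Figure D4:**
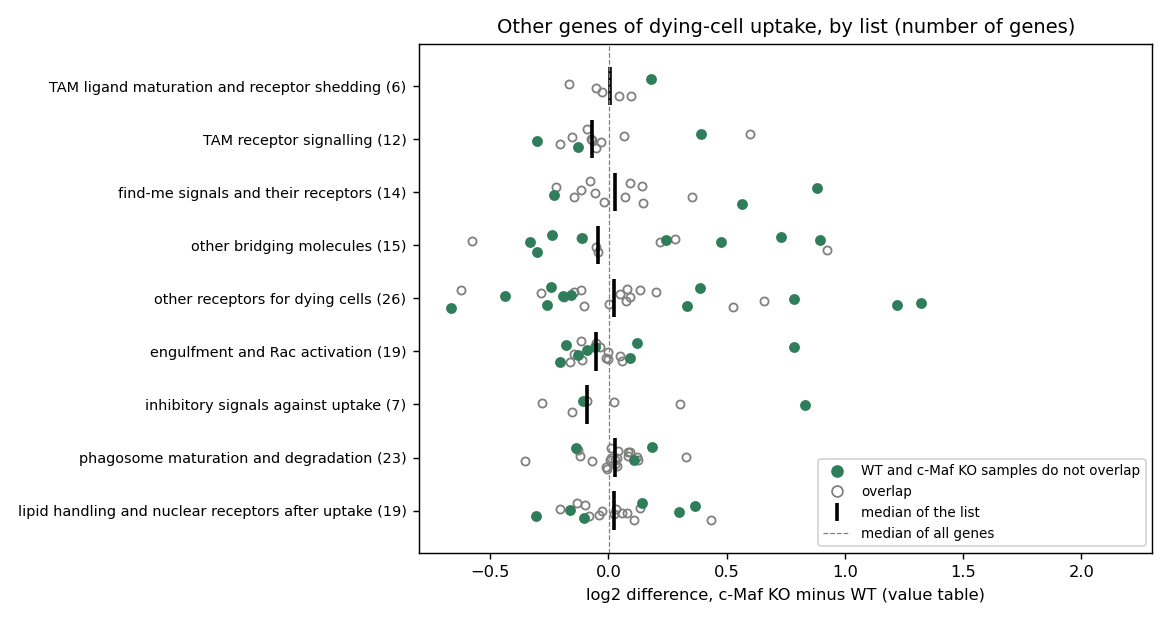
Log2 difference, c-Maf KO minus WT, in the value table (horizontal axis) for each detected gene of the 9 lists (rows), with filled points where the WT and c-Maf KO samples do not overlap and a black bar at the list's median. The medians lie between -0.089 and 0.029, and Cd300lf lies at 1.32. The other point beyond 1, Megf10, was well above background on 1 of 3 WT arrays.

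Genes that mature TAM ligands or shed TAM receptors differed little. Of 6 genes, all detected, 3 measured lower and 3 higher, and 1 had groups that did not overlap: Vkorc1l1, a vitamin K epoxide reductase (0.18, SE 0.063, adjusted p = 0.36, limma). Of 12 detected genes of TAM signalling, 9 measured lower and 3 higher. Vav3 measured -0.30 (SE 0.062, adjusted p = 0.206, limma), with log2 ratios of 0.11 to 0.17 in WT and -0.24 to -0.11 in c-Maf KO. Socs3, a feedback inhibitor of cytokine signalling that TAM receptors induce, measured 0.39 (SE 0.097, adjusted p = 0.254, limma).

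Among 14 genes of find-me signals and their receptors, 7 measured lower and 7 higher. Cx3cl1, a chemokine released by dying cells, had log2 ratios of -0.27, -0.60 and -0.46 in WT and 0.27, 0.48 and 0.57 in c-Maf KO. Its difference of 0.88 (SE 0.12) did not pass (adjusted p = 0.132, limma). Sphk1, which makes sphingosine 1-phosphate, measured 0.57 (SE 0.088, adjusted p = 0.152, limma).

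Bridging molecules other than the members split in both directions, with 8 of 15 lower and 7 higher. Those with groups that did not overlap and lower values were C1qa (-0.33), C1qb (-0.24) and C1qc (-0.30), the chains of the complement starter C1q, and Lgals3 (-0.11). These were named outside the rule for the lists, after their values were seen. On the other side, Thbs1, thrombospondin 1, measured 0.89 (SE 0.22, adjusted p = 0.256, limma) and Ptx3, a pentraxin, 0.73 (SE 0.26, adjusted p = 0.358, limma). Edil3 (0.48) and Anxa1 (0.24) were the other higher genes with groups that did not overlap, also named outside that rule. Thbs1 had log2 ratios of -0.16, -0.99 and -0.64 in WT, the same order as the stromal markers in these samples, whose part in the Thbs1 and Ptx3 values was not tested.

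Of 26 other receptors for dying cells, 12 measured lower and 14 higher. Cd300lf, a phosphatidylserine receptor of myeloid cells, had log2 ratios of -0.87, -0.47 and -0.80 in WT and 0.47, 0.72 and 0.65 in c-Maf KO. The groups were far apart, and the difference of 1.32 (SE 0.13) did not pass over all probes (adjusted p = 0.108, limma). Megf10, an engulfment receptor, had log2 ratios of -0.012, -1.55 and -1.57 in WT and 0.012, 0.31 and 0.20 in c-Maf KO. It was well above background on 1 of 3 WT arrays, so the size of its difference is not reliable and none is given. WT replicate 1 was its highest WT sample, as it was for the stromal markers, whose part in the Megf10 values was not tested.

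Of 19 detected genes of engulfment and Rac activation, 14 measured lower and 5 higher. Wasf2, a subunit of the complex that drives actin branching, measured -0.21 (SE 0.062, adjusted p = 0.304, limma). Bcar1, the Crk-binding scaffold p130Cas, measured 0.78 (SE 0.29, adjusted p = 0.372, limma), with log2 ratios of -0.013, -1.04 and -0.97 in WT and 0.013, 0.015 and 0.30 in c-Maf KO. The WT order was that of the stromal markers, whose part in the Bcar1 difference was not tested. Among 7 inhibitory genes, 4 measured lower and 3 higher, and Pilra, a paired inhibitory receptor, measured 0.83 (SE 0.19, adjusted p = 0.229, limma).

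For the steps after uptake, of 23 genes of phagosome maturation and degradation, 7 measured lower and 16 higher, with Dnase2a, a lysosomal DNase, at -0.14 (SE 0.069) and Slc29a3, a lysosomal nucleoside transporter, at 0.19 (SE 0.080). On the 5 arrays the split of this list was 14 lower and 9 higher, so its direction differed between the sources. Of 19 genes of lipid handling, 9 measured lower and 10 higher. Abca1, a cholesterol efflux pump, measured -0.31 (SE 0.070, adjusted p = 0.238, limma), and Tgm2, a transglutaminase of macrophages that clear dying cells, 0.37 (SE 0.093, adjusted p = 0.256, limma).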

How the data were processed

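Deposited by the authors were spot intensities of 1-colour Agilent arrays and a value table of linear ratios. The submitters' processing notes name Agilent Feature Extraction 10.7.3.1. The ratios were read as each sample's value over the probe's median of the 6 samples, since their log2 values followed the scaled scanner signals. How low values were treated in that table could not be read from those notes. For the intensities, control and outlier-flagged spots were left out, each array's processed signal was scaled to its own 75th percentile, log2 was taken and spots of a probe were averaged. Of 55668 probes, 28273 were well above background on at least 2 of 5 arrays. On each array 48.9% to 50.5% of probes were well above background, and precision is limited by how many arrays there are. The 5 arrays shared 1 slide and 1 scan, with WT in slide row 1 and c-Maf KO replicates 2 and 3 in row 2. On these arrays the row therefore cannot be told apart from the genotype. The slide position of c-Maf KO replicate 1 is not known. Replicates were compared with limma 3.58.1 under R 4.3.3 (lmFit, eBayes, Benjamini-Hochberg over all kept probes), tested on simulated data. Confidence intervals cover 95% and are unadjusted. A gene of a list stands as its kept probe of highest mean signal. Names came from the array files, with symbols updated through RefSeq (GRCm38.p6) for 28355 probes. All member probes were to be named, with Maf, the 1 or 2 genes per list with the largest difference among non-overlapping ones, and the 5 genes most like Gas6. The members and lists were chosen with earlier results of these data known. Samples of the 2 genotypes with the same number did not deviate together (r = -0.0043, -0.044 and 0.081), so no pairing was used. Alternatives covered background correction, normalization, filters, variance options, array weights, gene-level tests and leaving out replicates.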

Additional observations from a re-analysis of the deposited data

How the results depend on the processing

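None of the 11 detected member probes was called under any alternative run in either source, and Gas6 stayed negative and Tyro3 and Axl positive in all of them. The call count over all probes moved more. On the 5 arrays it was 7, against 22 with normexp correction, 123 with eBayes trend and robust, 1 with only probes well above background on all arrays, 0 with the replicate block, 2 with WT replicates 1 and 3 averaged (tried because they may not be independent), and 2 to 18 with 1 replicate left out. In the value table it was 6, against 3 after quantile normalization, 2 without a filter, 50 with trend and robust, and 2 to 31 with 1 replicate left out. The replicate block left the Gas6 difference in the value table at -0.65 (adjusted p = 0.331, limma) and called 7 probes there, none of them a member. Small differences changed sign. On the 5 arrays, leaving out 1 replicate gave -0.031 to 0.15 for Pros1, -0.29 to 0.082 for Mertk, -0.14 to 0.15, -0.26 to 0.043 and -0.38 to 0.44 for the 3 Lrp1 probes, -0.33 to 0.13 for Elmo1 and -0.086 to 0.014 for Dock1. In the value table it gave -0.041 to 0.064 for Pros1, -0.069 to 0.19 for Mfge8, -0.10 to 0.084 for Mertk, and -0.12 to 0.023, -0.15 to 0.14 and -0.31 to 0.086 for the 3 Lrp1 probes. The brightest Lrp1 probe measured -0.065 with the replicate block, -0.020 with WT replicates 1 and 3 averaged and -0.026 as the gene's mean of probes. The third measured -0.054 with normexp correction, -0.036 after quantile normalization, -0.036 with the replicate block and -0.0042 with WT replicates 1 and 3 averaged. The cause of these changes was not tested.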
